A study of Mus musculus with 27 samples.

Results

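The sham vehicle hearts are the controls of a pressure overload study, and their 9 arrays of 27 in the series (3 at day 3, 3 at day 11 and 3 at day 28 after the operation) were compared with each other across all genes. They were picked out by their labels, and no measured value decided which arrays entered. Earlier results of these data were known when this comparison was chosen. Every heart came from a male C57Bl/6J littermate aged 10 to 12 weeks at the operation, so hearts of later days came from older mice. The sham groups had sham surgery and injections of DMSO vehicle, which began 1.5 days after the operation. The other arrays, used here only for contrast, are 9 of hearts with transverse aortic constriction (TAC) and vehicle and 9 of hearts with TAC and the BET bromodomain inhibitor JQ1, at the same days. The protocol text describes anaesthesia with ketamine and xylazine, ventilation and thoracotomy for TAC. The comparison across days asks what a heart that is operated on but not constricted does as time passes. Unoperated hearts are not among the samples, so time since surgery, days of injection and age cannot be told apart. The labels name no array batch and no hour of day at which hearts were taken. Any batch that followed the day cannot be told apart from it either.

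A sham operation takes an animal through anaesthesia, surgery and healing without narrowing the aorta. Injured tissue recruits macrophages, which clear debris and carry complement and antigen presenting molecules, and resident fibroblasts respond with matrix synthesis. Cells that make more secreted or membrane protein load the endoplasmic reticulum, and the unfolded protein response then raises chaperones through the transcription factors Xbp1 and Atf6. The heart also runs a daily clock in which Arntl and Clock drive the Per and Cry genes that feed back on them.

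The levels are log2 array signals, so a difference of 1 is a doubling. The mean level of 10 cardiomyocyte markers lay between 13.2 and 13.3 in all 9 arrays, that of 9 lung epithelium markers between 5.69 and 6.05, and the array medians between 6.97 and 7.04. Signals of different probe sets cannot be set against each other, so these levels show only how far each list varied from array to array. No pair of arrays of 1 day was a duplicate (correlations of 0.991 to 0.998). The labels do not say that the arrays of a day are separate animals, so the p-values measure only the spread between these samples, which may be technical.

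Differences between days made up the smaller share of the variation among these arrays. Of the sum of squares over 19937 genes, 27.3% lay between days and the rest between arrays of 1 day. Part of the sum of squares lies between groups of arrays even with no day effect. That part was not subtracted, so 27.3% is not the size of a time effect. The first principal component held 38.4% of the variance, and 4.52% of that component lay between days. It set day 3 array 2 (score 21.0) against day 11 array 3 (-15.9) and day 3 array 1 (-13.8). The dimmest tercile of genes by mean level followed it, with a mean deviation of 0.13 in day 3 array 2 and -0.10 in day 11 array 3. The second component held 16.3%, with 91.1% of it between days, and put the 3 arrays of day 3 below all others (-14.3, -8.01 and -6.18) and those of day 28 highest (6.03, 8.23 and 7.64). The third component held 10.7%, with 90.7% of it between days.

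**Figure D1:**
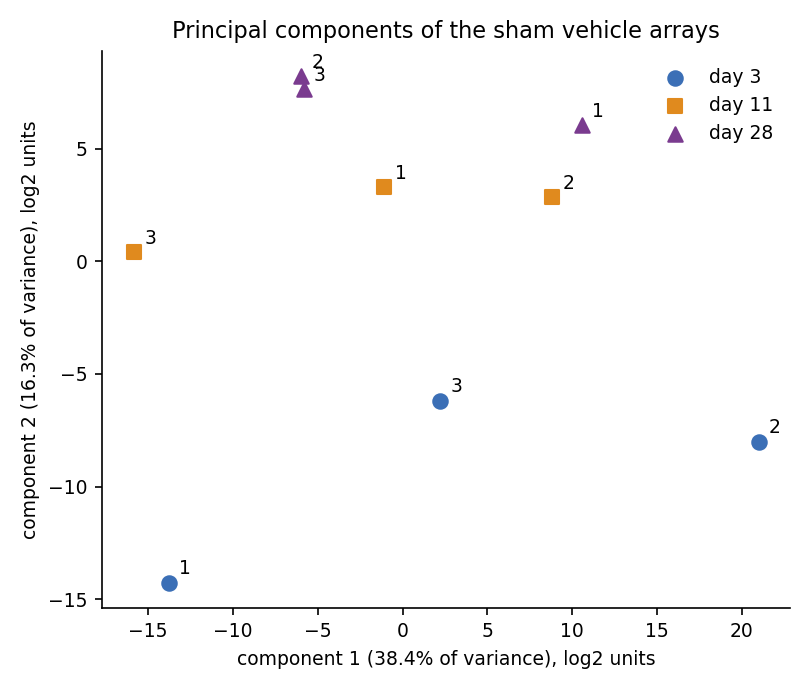
Scores of the 9 sham vehicle arrays on the first and second principal components of 19937 genes, in log2 units, with the replicate number beside each point. The days mix along component 1 (38.4% of the variance) and separate in order along component 2 (16.3%), with day 11 between 0.40 and 3.29.

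Few single genes passed the test. Genes were called at an adjusted p under 0.05 in 1 moderated fit to all 27 arrays. Across the 3 sham days 13 genes were called by the F test (0.0652% of 19937). Between day 11 and day 3 0 genes (0%) were called by limma, with 1178 at an unadjusted p under 0.05 and a smallest adjusted p of 0.0525. Between day 28 and day 11 2 genes (0.01%) were called, both lower. Between day 28 and day 3 16 genes (0.0803%) were called, 13 higher and 3 lower. The median standard error of a difference was 0.102, which gives a 95% interval of 0.21 to either side. The interval lay within 1.5-fold of no difference for 96.7%, 97.3% and 96.4% of genes in the 3 comparisons. A total of 19, 14 and 36 genes had an estimate of 1.5-fold or more, and 4 of the 36 were called.

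At day 11 the smallest p-values against day 3 included genes of protein folding in the endoplasmic reticulum. Creld2, Xbp1 and Manf were called across the 3 days, with their highest levels at day 11 in all 3 cases. Creld2 and Xbp1 then fell between day 11 and day 28. Of 25 genes in the list of the unfolded protein response and folding, 13 were higher at day 11 than at day 3 at an unadjusted p under 0.05 and 0 were lower, where 3.23% of all genes were higher and 2.68% lower. None passed the adjusted test in that comparison. Their median difference was 0.24, against -0.02 over all genes. In 14 of the 25 the arrays of day 11 lay above those of day 3 without overlap and in 1 below, against 7.46% and 5.83% of all genes. From day 11 to day 28 the median was -0.15 (0.00 over all genes), with 0 members higher and 6 lower, against 1.84% and 2.15% of all genes. By day 28 the median difference from day 3 was 0.06. At an unadjusted p under 0.05 6 members were still higher than at day 3 and 0 lower, against 4.03% and 3.78% of all genes.

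Part of this gene group carries a known control sequence. The endoplasmic reticulum stress element, CCAAT followed after 9 bases by CCACG, is bound by Atf6 and Xbp1 with the CCAAT factor NF-Y. It was searched on both strands in RefSeq promoters (GRCm38.p6, windows of 300 bases that span each start). It stood in 39 of 32851 promoters (0.119%). By gene it stood in 37 of 27025 genes with a promoter (0.137%) and in 9 of the 21 list members with one. Creld2 held it once. Its promoter (chr15:88819396-88819695, plus strand) is shown because Creld2 had the smallest F test p of the list, with capitals marking the element, which reads CCAAT on the minus strand.
Creld2 promoter: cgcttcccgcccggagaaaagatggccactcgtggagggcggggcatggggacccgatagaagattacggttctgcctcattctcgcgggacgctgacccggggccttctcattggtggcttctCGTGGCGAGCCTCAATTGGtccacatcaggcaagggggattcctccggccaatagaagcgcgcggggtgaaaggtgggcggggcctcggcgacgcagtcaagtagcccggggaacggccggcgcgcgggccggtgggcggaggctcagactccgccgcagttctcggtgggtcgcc

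For 4 members that were also higher at day 11 at an unadjusted p under 0.05, 1 element each is set beside that of Creld2, read 5′ to 3′ on the strand where they begin with CCAAT, with the fixed bases in capitals.
Creld2, chr15:88819520-88819538, minus strand, ending 107 bases before the start: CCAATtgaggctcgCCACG
Hspa5, chr2:34772025-34772043, plus strand, ending 46 bases before the start: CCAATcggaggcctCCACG
Hsp90b1, chr10:86705533-86705551, plus strand, ending 88 bases before the start: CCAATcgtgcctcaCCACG
Calr, chr8:84847075-84847093, plus strand, ending 143 bases before the start: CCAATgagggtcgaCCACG
Syvn1, chr19:6046532-6046550, plus strand, ending 25 bases before the start: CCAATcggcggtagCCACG
Hsp90b1 holds another on the minus strand, ending 193 bases before the start (chr10:86705638-86705656), which is not printed. The remaining holders, Pdia6, Canx, Dnajc3 and Derl3, did not pass that p at day 11 (differences of 0.12, -0.06, 0.02 and 0.02). The promoter listed for Xbp1 does not hold these letters, and Manf has no entry in the table. A match describes the sequence and is not a measured binding site.

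Creld2, a secretory chaperone of the endoplasmic reticulum, measured 8.73, 8.61 and 8.63 at day 3, 9.11, 9.19 and 9.35 at day 11, and 8.72, 8.65 and 8.66 at day 28. The 3 arrays of day 11 lay above the other 6 with no overlap. The difference from day 3 to day 11 was 0.56 ± 0.091 (1.48-fold, adjusted p = 0.0525) and did not pass the threshold, and that from day 11 to day 28 was -0.54 ± 0.091 (adjusted p = 0.0483). Xbp1, whose spliced product is a main transcription factor of the response, measured 10.33, 10.31 and 10.34 at day 3, 10.62, 10.76 and 10.80 at day 11, and 10.24, 10.30 and 10.36 at day 28. It too was highest at day 11 without overlap. The difference was 0.40 ± 0.072 up to day 11 (adjusted p = 0.0693) and -0.43 ± 0.072 from there (adjusted p = 0.0483). An array probe set of this kind gives the gene's total signal and does not separate spliced from unspliced Xbp1.

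Manf, a secreted protein that is retained in the endoplasmic reticulum and protects cells under stress, measured 7.82, 8.03 and 7.82 at day 3, 8.31, 8.73 and 8.49 at day 11, and 8.01, 7.95 and 7.74 at day 28. Its day 11 arrays again stood clear of the rest (F test adjusted p = 0.0251). Sdf2l1, a cofactor of the chaperone Hspa5, had a day 11 minus day 3 difference of 0.70 ± 0.13 (adjusted p = 0.0793), and Hyou1, a large luminal chaperone, one of 0.51 ± 0.091 (adjusted p = 0.0693). Neither passed the test. Other luminal chaperones were not called either. Hspa5, the central luminal chaperone, differed by 0.30 (adjusted p = 0.4), Hsp90b1 by 0.26 (adjusted p = 0.476) and the calcium-binding chaperone Calr by 0.27 (adjusted p = 0.288). Dnajb9, an Xbp1 target, differed by 0.51 and Syvn1, a ubiquitin ligase that clears misfolded proteins, by 0.33. Ddit3, which marks the branch leading to cell death, differed by 0.14 and was not among the 13. Neighbouring stress programmes showed little of this. The 22 genes of heat shock and cytosolic chaperones had a median of -0.01 (2 higher, 1 lower at an unadjusted p under 0.05). The 23 genes of ATF4 and amino acid stress had one of 0.05 (1 higher, 1 lower). Over all genes 3.23% were higher and 2.68% lower.

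**Figure D2:**
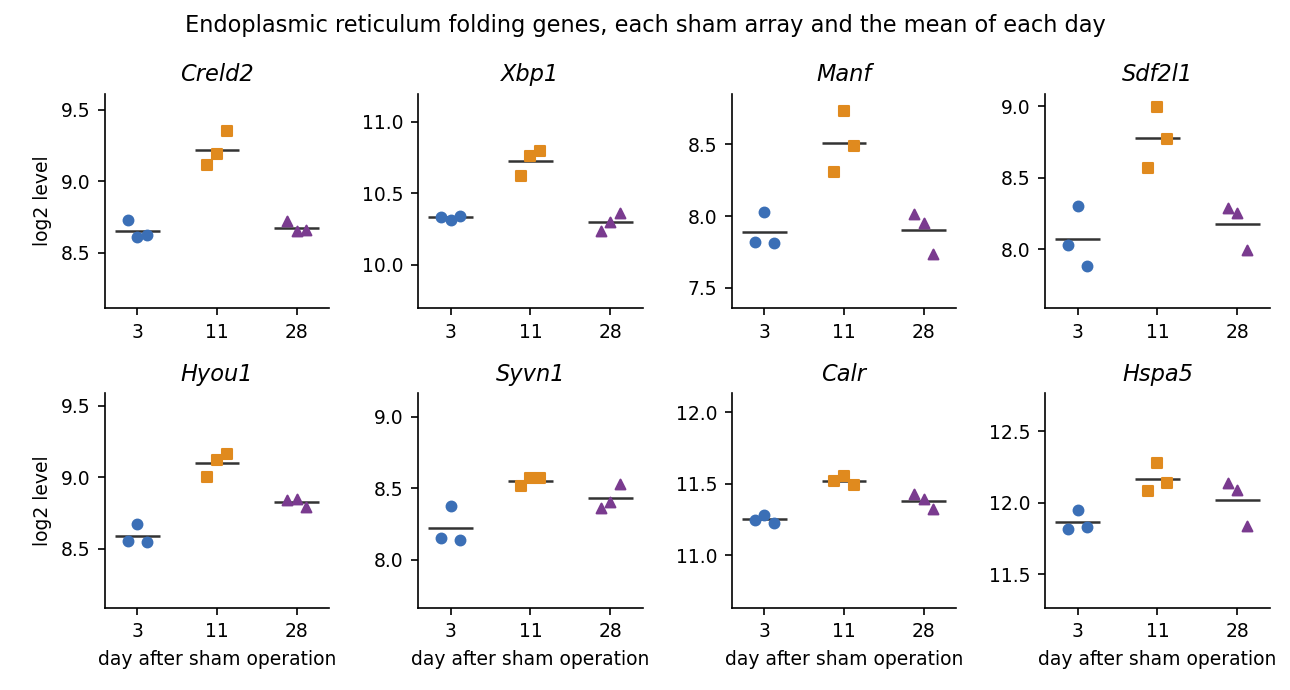
Log2 level of 8 genes of protein folding in the endoplasmic reticulum in each sham vehicle array at days 3, 11 and 28, with a line at the mean of each day and 1.5 log2 units on every vertical axis. The 8 genes were chosen after their values were seen, from the 14 of 25 list members whose day 11 arrays lie above all arrays of day 3, and Creld2, Xbp1, Manf and Sdf2l1 return to their day 3 range or close to it by day 28.

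The step to day 11 differed in the constricted hearts. The difference between TAC vehicle and sham in the step from day 3 to day 11 was called for 70 genes (0.351%), 31 higher and 39 lower in TAC, and 8 of the 25 folding genes were among the lower ones. The median over the 25 was -0.30, against 0.03 over all genes. These interactions contain the sham difference for which the folding genes were picked out, so they are no independent evidence of a contrast with TAC. Manf had an interaction of -0.98 ± 0.16 (adjusted p = 0.0158), with differences of 0.63 in sham and -0.355 in TAC vehicle hearts. For Creld2 the interaction was -0.61 ± 0.13 (adjusted p = 0.0382), for Xbp1 -0.55 ± 0.10 (adjusted p = 0.0174) and for Sdf2l1 -1.06 ± 0.19 (adjusted p = 0.0158). At day 3 the mean levels in TAC vehicle hearts were 8.94 for Creld2 and 10.65 for Xbp1, against 8.66 and 10.33 in sham, a difference that was not tested. Over the step from day 11 to day 28, in which Creld2 and Xbp1 fell in sham, their differences were -0.18 and -0.04 in TAC vehicle hearts, where 2.09% of all genes were called, and 0.02 and 0.06 in TAC JQ1 hearts, where 5.26% were. Neither gene was called there, and the difference between TAC vehicle and sham in that step was called for 29 genes (0.145%), not including them. The count of 70 moved by over 1.5 times, to between 6 and 122, when any of the 12 arrays was left out other than TAC vehicle day 3 array 1 (56 genes). The count of 29 moved likewise, to between 4 and 86, except without TAC vehicle day 11 array 1 (41 genes).

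The 2 calls between day 28 and day 11 and the absence of calls between day 11 and day 3 sat at the threshold. Leaving out any 1 of the 9 sham arrays left 0 genes called between day 28 and day 11. Between day 11 and day 3, leaving out that dimmest tercile, or fitting the variance with a trend, called the same 6 genes, which were Creld2, Xbp1, Hyou1, Nr4a3, Manf and Sdf2l1, all higher. Without day 3 array 2 4 genes were called.

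By day 28 a different set of genes stood apart from day 3. The 13 that rose were an orphan nuclear receptor, Nr4a3, the clock gene Per2, the basement membrane proteoglycan gene Hspg2, the histone modifiers Kmt2d, Setd1b and Kdm6b, the Notch pathway genes Notch3 and Jag2, and Nfic, Prrc2a, Shank3, Plxna4 and Ttc28. The 3 that fell were the small nucleolar RNAs Snora44 and Snora52 and the junction protein gene Clmp. The rises spanned 1.29-fold (Jag2) to 2.10-fold (Nr4a3), and the falls were 1.37-fold for Clmp, 1.52-fold for Snora52 and 1.54-fold for Snora44. In all 16 the 3 arrays of day 28 lay outside the range of the 3 arrays of day 3, as they did for 15.7% of all genes. The 16 were chosen by this same difference, so their separation largely follows from the choice and adds no evidence.

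Nr4a3, an immediate early gene induced by many stimuli, measured 6.42, 6.30 and 6.18 at day 3, 7.10, 7.03 and 7.71 at day 11, and 7.11, 7.35 and 7.65 at day 28. All 6 later arrays exceeded all 3 of day 3, and days 11 and 28 overlapped. The difference was 0.98 ± 0.17 by day 11 (adjusted p = 0.0693) and 1.07 ± 0.17 by day 28 (adjusted p = 0.00931). Its relative Nr4a1 had a day 28 minus day 3 difference of 0.80 ± 0.23 and was not called (adjusted p = 0.228), with array 1 of day 28 at 7.86, inside the day 3 range of 7.56 to 7.99. Of 27 immediate early genes 4 were higher at day 28 at an unadjusted p under 0.05 and 0 lower, against 4.03% and 3.78% of all genes, with a median of 0.10. Fos, the classical member, differed by -0.10 (95% interval -0.34 to 0.13) and Egr1 by -0.16 (-0.56 to 0.24).

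Per2, a repressor of the circadian clock, measured 8.01, 8.06 and 8.39 at day 3, 8.48, 8.26 and 8.35 at day 11, and 8.67, 9.01 and 8.87 at day 28. Day 28 stood above both earlier days, which overlapped. The difference from day 3 was 0.70 ± 0.12 (adjusted p = 0.0125). Of 18 clock genes 8 were higher and 2 lower at an unadjusted p under 0.05, against 4.03% and 3.78% of all genes. The median was 0.23 against -0.02 over all genes, and Per2 was the 1 member called. Per1 differed by 0.79 (adjusted p = 0.412), Ciart, a repressor of the Arntl complex, by 0.84 (adjusted p = 0.218), and the output gene Tef by 0.35 (adjusted p = 0.172). Arntl, which works in the opposite phase to the Per genes, differed by -0.78 (adjusted p = 0.202). It measured 7.82, 7.40 and 7.11 at day 3 and 6.79, 6.53 and 6.66 at day 28. Array 3 of day 3 had the highest Per1 (9.02, against 8.22 and 8.17), Ciart and Per2 and the lowest Arntl of its day. The E-box CACGTG, to which Arntl and Clock bind, stood in the promoters of 5 of 16 clock genes with an entry (Per1, Cry1, Tef, Ciart and Bhlhe41), against 8.09% of genes. Per2 has no entry. From day 3 to day 28 the 18 clock genes had a median difference of 0.24 in TAC vehicle hearts. There 5 were called higher and 1 lower, where 3.65% of all genes were called. In TAC JQ1 hearts the median was -0.02, with 0 called higher and 1 lower, where 6.4% of all genes were called.

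Hspg2 encodes perlecan, a large proteoglycan of vessel and muscle basement membranes. It measured 10.14, 10.21 and 10.20 at day 3, 10.32, 10.39 and 10.33 at day 11, and 10.66, 10.80 and 10.84 at day 28. The 3 days did not overlap and were in order, and the difference from day 3 to day 28 was 0.58 ± 0.091 (adjusted p = 0.00931). Kmt2d and Setd1b, which methylate lysine 4 of histone H3, differed by 0.51 ± 0.079 (adjusted p = 0.00931) and 0.45 ± 0.082 (adjusted p = 0.0261). Kmt2d measured 8.66, 8.85 and 8.75 at day 3 and 9.15, 9.25 and 9.39 at day 28. Kdm6b, which removes the repressive methyl marks of lysine 27, differed by 0.45 ± 0.087 (adjusted p = 0.04). Nfic, a transcription factor of the nuclear factor I family, differed by 0.44 ± 0.075 (adjusted p = 0.0125).

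Notch3, the Notch receptor of vascular smooth muscle and pericytes, measured 8.18, 8.31 and 8.11 at day 3, 8.34, 8.39 and 8.42 at day 11, and 8.52, 8.70 and 8.67 at day 28. Each day lay above the one before it without overlap, and the difference was 0.43 ± 0.075 (adjusted p = 0.0164). Jag2, a Notch ligand, measured 8.49, 8.55 and 8.56 at day 3 and 8.90, 8.91 and 8.89 at day 28, a difference of 0.37 ± 0.059 (adjusted p = 0.00931). Of the related genes looked at after these calls were seen, Notch1 differed by 0.32 (adjusted p = 0.12) and Jag1 by 0.21 (adjusted p = 0.38), and neither was called. Among 14 smooth muscle and pericyte markers 4 were higher at an unadjusted p under 0.05 and 0 lower, against 4.03% and 3.78% of all genes. Beside Notch3 these were Cspg4 (0.39), the contractile gene Myh11 (0.29) and Pdgfrb (0.26), none called. Among 17 endothelial markers 4 were higher and 0 lower, with Cdh5 at 0.32 (adjusted p = 0.147), but the medians of the 2 lists were 0.09 and 0.06.

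Snora44 and Snora52 are small nucleolar RNAs, of the class that guides the conversion of uridine to pseudouridine in ribosomal RNA. Snora44 measured 8.31, 8.38 and 8.45 at day 3, 8.13, 8.22 and 8.18 at day 11, and 7.68, 7.74 and 7.83 at day 28, with no overlap between days. The difference from day 3 to day 28 was -0.63 ± 0.10 (adjusted p = 0.00931). Snora52 measured 11.68, 11.85 and 11.65 at day 3 and 11.22, 11.11 and 11.06 at day 28, a difference of -0.60 ± 0.10 (adjusted p = 0.0124). Such RNAs are cut from the introns of host genes, and Rplp2, the host of Snora52 in the RefSeq annotation, differed by 0.01 (95% interval -0.14 to 0.16). A value for Snhg12, the host of Snora44, is not given here. Over 51 small nucleolar RNA genes, a list drawn up after Snora44 and Snora52 were seen, the median was -0.18. At an unadjusted p under 0.05 0 members were higher and 5 lower, against 4.03% and 3.78% of all genes. The list's mean deviation was -0.25, 0.01 and -0.15 in the 3 arrays of day 28, so array 2 of that day lay within the range of day 3. Of 27 cytosolic ribosomal protein genes 7 were lower at an unadjusted p under 0.05 and 0 higher. Their median was -0.08, with Rps20 at -0.33 (adjusted p = 0.131) and Rps3 at -0.26 (adjusted p = 0.204), and none was called. RNA quality figures are not among the labels, and the part of RNA quality or labelling in these differences was not tested.

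**Figure D3:**
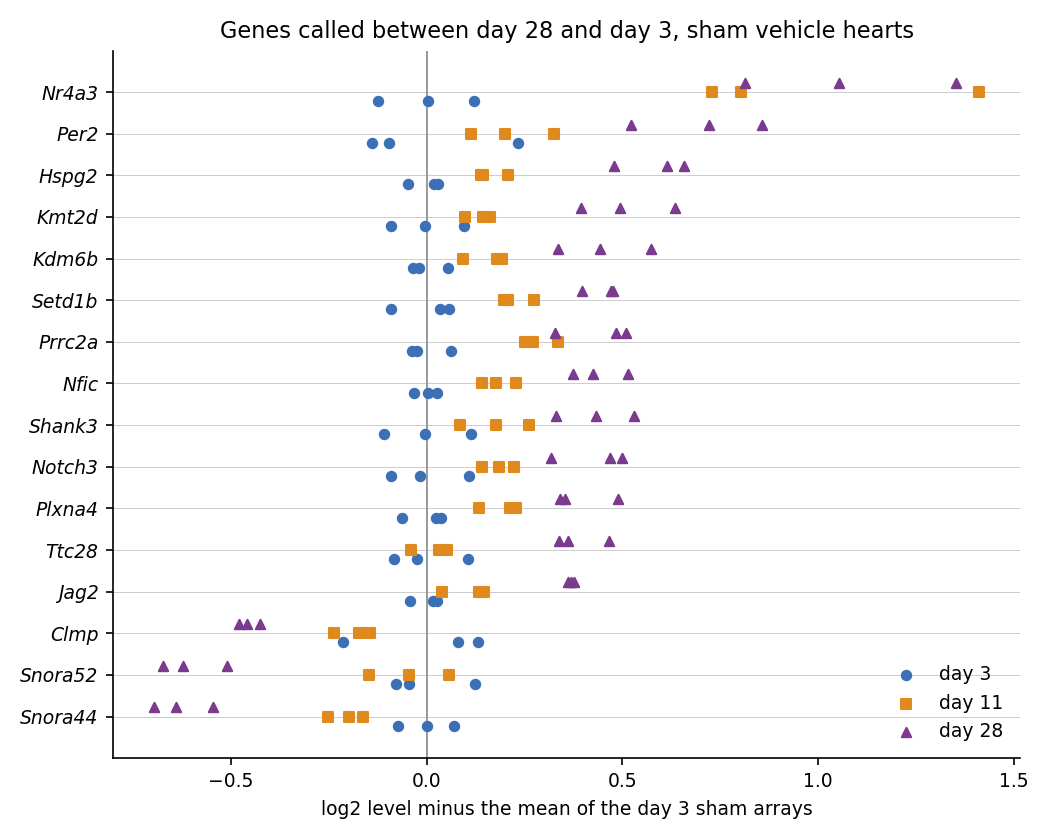
Log2 level of the 16 genes called between day 28 and day 3 in each of the 9 sham vehicle arrays, given as the difference from the mean of the day 3 arrays. Triangles (day 28) lie to one side of the circles (day 3) in all 16 genes, and the day 11 arrays (squares) of Nr4a3 overlap those of day 28.

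Whether the 16 genes passed the threshold depended on single arrays. Leaving out an array also makes its group smaller, so a lost call need not mean a changed difference. Without day 3 array 1, day 28 array 2 or day 28 array 3, 0 genes were called, and without day 3 array 3 8 were called, 7 of them among the 16. The F test count of 13 became 0 without the first 3 of these arrays, 5 without day 3 array 3 and 8 without day 11 array 3. With the 9 sham arrays alone 8 genes were called, of which 2 were among the 16. With the dimmest tercile left out 45 were called, and all 16 remained. The sign of each of the 16 differences was the same under all 17 alternatives, with Clmp between -0.56 and -0.29 and Hspg2 between 0.55 and 0.64. Abl1, Slc16a9, Zfp366 and Prickle3 lay just outside the threshold, with adjusted p from 0.053 to 0.0535.

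Most inflammatory and stromal markers had lower levels at day 28 than at day 3, and none of them passed the adjusted test. Of 22 macrophage markers 21 had a negative difference, with a median of -0.36. At an unadjusted p under 0.05 10 were lower and 0 higher, against 3.78% and 4.03% of all genes. The list's mean deviation was 0.26, 0.28 and 0.04 in the arrays of day 3, -0.09, -0.04 and -0.05 at day 11 and -0.18, -0.11 and -0.11 at day 28. Day 3 array 3 stood closest to the later days. Hearts with fewer macrophages and hearts whose macrophages hold less of these RNAs cannot be told apart in whole tissue. Lyz2, the lysozyme of myeloid cells, measured 11.22, 11.34 and 10.94 at day 3, 10.74, 10.79 and 10.86 at day 11, and 10.60, 10.65 and 10.75 at day 28 (difference -0.50 ± 0.11, adjusted p = 0.0997). Ctss, a lysosomal protease of antigen presenting cells, differed by -0.59 (adjusted p = 0.199) and Mrc1, the mannose receptor of resident macrophages, by -0.38 (adjusted p = 0.523).

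Related lists had the same sign. Over all genes 3.78% were lower and 4.03% higher at an unadjusted p under 0.05. Of 10 antigen presentation genes 4 were lower and 0 higher at an unadjusted p under 0.05 (median -0.32), among them the class II chain gene H2-Eb1 (-0.72, adjusted p = 0.261) and B2m (-0.32, adjusted p = 0.211). Of 15 complement genes 5 were lower and 0 higher (median -0.30), including C1qa (-0.46, adjusted p = 0.172) and C1qc (-0.46, adjusted p = 0.204), which the macrophage list also holds. Of 36 cytokine genes 8 were lower and 2 higher (median -0.11). In that list Cxcl13, a B cell attracting chemokine, read 9.20 in day 3 array 1 and between 5.51 and 6.08 in the other 8 arrays, so its difference of -1.28 rested on 1 array. Of 14 neutrophil markers 2 were lower (median -0.24), and the 14 T and NK cell markers had a median of -0.05. Retnla, a marker of alternatively activated macrophages chosen after its values were seen, differed by -1.15 (adjusted p = 0.0719).

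Fibroblast markers had negative differences in 16 of 18 cases, with none called. Of the 18, 6 were lower and 0 higher at day 28 at an unadjusted p under 0.05, against 3.78% and 4.03% of all genes. The median was -0.23. Dpt, a matrix protein of fibroblasts, measured 11.27, 10.96 and 11.09 at day 3 and 10.68, 10.73 and 10.73 at day 28 (difference -0.39, adjusted p = 0.249). Dcn, the abundant proteoglycan decorin, differed by -0.21 (adjusted p = 0.349). Of 23 collagen chains 22 had a negative difference between day 11 and day 3, with a median of -0.09 and 1 at an unadjusted p under 0.05, and by day 28 the median was -0.05. The day 11 median was -0.16 without day 11 array 2, -0.06 without day 3 array 2 and -0.05 without day 11 array 3. Col1a1 differed by -0.07 at day 28 (95% interval -0.38 to 0.24) and Postn, a matrix protein of activated fibroblasts, by 0.08 (-0.41 to 0.57). Serpina3n, an acute phase protease inhibitor, measured 10.12, 10.74 and 9.84 at day 3, and at most 9.37 at day 11 and at most 9.43 at day 28. Day 3 lay above both later days without overlap, and the difference to day 11 was -1.03 ± 0.35 (adjusted p = 0.674).

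**Figure D4:**
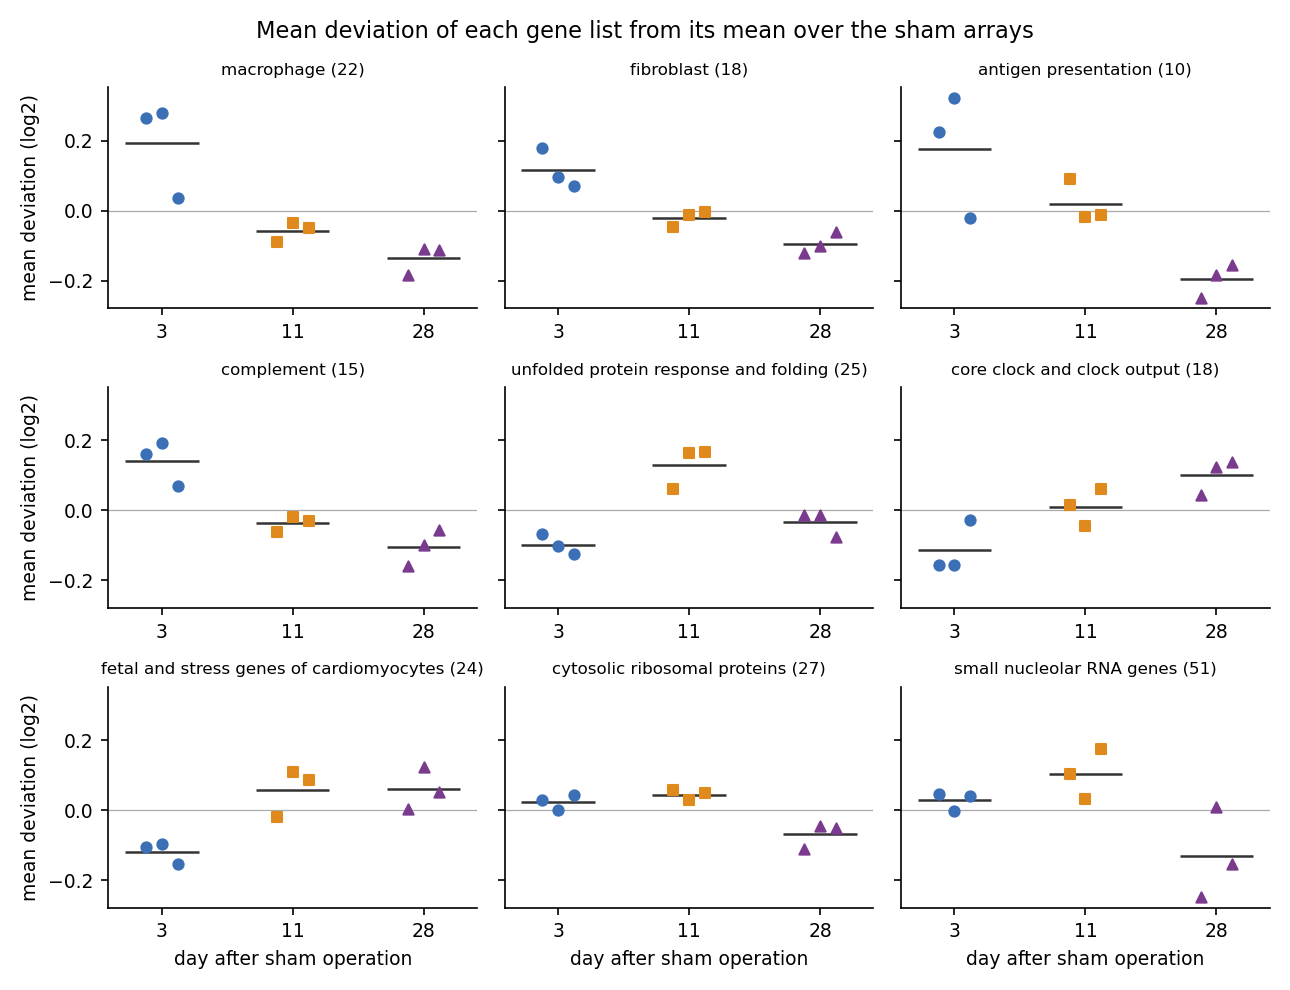
Mean deviation, in log2 units, of 9 gene lists from their mean over the 9 sham vehicle arrays, 1 point per array and a line at the mean of each day, with the number of genes in brackets. The macrophage, fibroblast, antigen presentation and complement lists have their highest mean at day 3 and their lowest at day 28, the folding list is highest at day 11 (0.06 to 0.17), and the small nucleolar RNA list spreads widely at day 28.

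None of the listed genes of heart muscle cells was called. Nppa, the atrial natriuretic peptide and a standard marker of load, measured 11.52, 11.31 and 11.42 at day 3, 11.59, 11.89 and 11.59 at day 11, and 11.62, 11.95 and 11.79 at day 28. Day 3 lay below the later days without overlap, and the difference to day 28 was 0.37 (95% interval -0.01 to 0.75, adjusted p = 0.656). Nppb, the brain natriuretic peptide, ranged over more than a log2 unit within day 3 (10.96, 10.42 and 9.75) and differed by 0.45 (-0.20 to 1.11). The heavy chain of adult ventricle, Myh6, differed by 0.08 (-0.02 to 0.18) and that of fetal ventricle, Myh7, by 0.43 (-0.02 to 0.88). Skeletal actin, Acta1, differed by 0.41 (-0.20 to 1.01). Of 24 fetal and stress genes of cardiomyocytes 5 were higher and 0 lower at day 28 at an unadjusted p under 0.05. Over all genes these shares were 4.03% and 3.78%. The median of the 24 was 0.12 and none was called. Flnc, a filamin of the Z-disc, differed by 0.42 (adjusted p = 0.381) and the small heat shock protein gene Hspb7 by 0.22 (adjusted p = 0.218). Of 29 genes of calcium handling and ion channels 5 were higher and 0 lower (median 0.07), with the potassium channel Kcnh2 at 0.27 (adjusted p = 0.264) and the dyad protein Jph2 at 0.30 (adjusted p = 0.292).

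No gene of fuel metabolism was called. The medians between day 28 and day 3 were -0.04 for 33 genes of fatty acid uptake and oxidation, -0.01 for 23 of the tricarboxylic acid cycle, -0.03 for 58 respiratory chain subunits and 0.03 for 18 of glycolysis and glucose uptake. Of the 58 respiratory chain genes 5 were lower and 0 higher at an unadjusted p under 0.05, against 3.78% and 4.03% of all genes. The 37 proliferation genes had a median of 0.07 and 0 members past that p in either direction, and Mki67, a marker of dividing cells, differed by 0.30 (95% interval -0.14 to 0.75). The 26 glucocorticoid-responsive genes, which surgery and handling can raise, had a median of -0.03 with 1 higher and 3 lower. Fkbp5, one of the most sensitive of them, differed by -0.04 (-0.65 to 0.57).

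The same steps were set beside those of the constricted hearts, which share no array with the sham hearts. Between day 28 and day 3 727 genes (3.65%) were called in TAC vehicle hearts and 1275 (6.4%) in TAC JQ1 hearts. The difference between TAC vehicle and sham in this step was called for 319 genes (1.6%), 205 higher and 114 lower in TAC. Of the 16 genes called in sham 7 had the same sign in TAC vehicle hearts and 0 were called there. Nr4a3 measured 6.92 at day 3 and 6.98 at day 28 in TAC vehicle hearts as group means, against 6.30 and 7.37 in sham. Nfic differed by -0.26 in TAC vehicle hearts (adjusted p = 0.0541), Snora44 by 0.13 (adjusted p = 0.527) and Per2 by 0.31 (adjusted p = 0.166). The 16 were chosen by their sham difference, which enters the difference between TAC and sham with a minus sign, so a tally of interactions over them carries no independent evidence.

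In the TAC JQ1 hearts 12 of the 16 genes were called in the opposite direction, 11 of them genes that rose in sham. Nfic differed by -0.80 there (adjusted p = 4.46e-06), Hspg2 by -0.60 (adjusted p = 0.000413), Ttc28 by -0.57 (adjusted p = 4.9e-05) and Kmt2d by -0.55 (adjusted p = 0.000298). Snora52 rose by 0.35 (adjusted p = 0.0398). Over all 19937 genes the day 28 minus day 3 differences of sham and of TAC JQ1 hearts correlated at -0.326, and those of sham and TAC vehicle hearts at -0.0404. These are correlations across genes, which are not independent replicates. In TAC vehicle hearts, which had the constriction without the drug, 0 of the 16 were called in either direction. The difference between TAC JQ1 and TAC vehicle hearts in this step was not tested. No sham hearts with JQ1 are among the samples, so these data do not show what the drug does without constriction. Whether the drug, an array batch or RNA quality had a part in the TAC JQ1 differences was not tested.

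The immune and stromal lists had interactions of different signs. All 22 macrophage markers had a positive interaction between TAC vehicle and sham for day 28 against day 3, with a median of 0.47, and 3 were called. Over all genes 1.6% were called in this interaction, 205 higher and 114 lower in TAC. The fibroblast list had a median interaction of 0.56 with 7 of 18 called, and complement one of 0.62 with 7 of 15 called. All the called members of these 3 lists were higher in TAC. The sham differences of these lists, mostly negative, enter the interaction with a minus sign. These interactions are therefore no independent evidence of a contrast with TAC. Antigen presentation genes had a median of 0.73 (3 of 10 called higher) and interferon-stimulated genes one of 0.45 (0 of 25 called). The 40 matrix genes other than collagens had a median of 0.39, with 11 called higher and 1 lower. The 17 endothelial markers had one of 0.28, with 0 called. The lists that follow lay near 0 or below, against -0.02 over all genes. The median was -0.14 for monocyte markers (1 of 7 positive), -0.01 for neutrophil markers (7 of 14 positive) and -0.02 for cytokines (18 of 36 positive). It was -0.10 for acute phase genes (8 of 23 positive) and 0.00 for collagen chains (12 of 23 positive). The medians of the day 28 minus day 3 difference itself in sham and in TAC vehicle hearts were -0.36 and 0.16 for macrophage markers and -0.23 and 0.39 for fibroblast markers. The count of 319 was between 95 and 192 without sham day 3 array 1 or 3, sham day 28 array 1 or 2, TAC vehicle day 3 array 3 or TAC vehicle day 28 array 1 or 3. Without any of the other 5 arrays it was between 215 and 451.

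**Figure D5:**
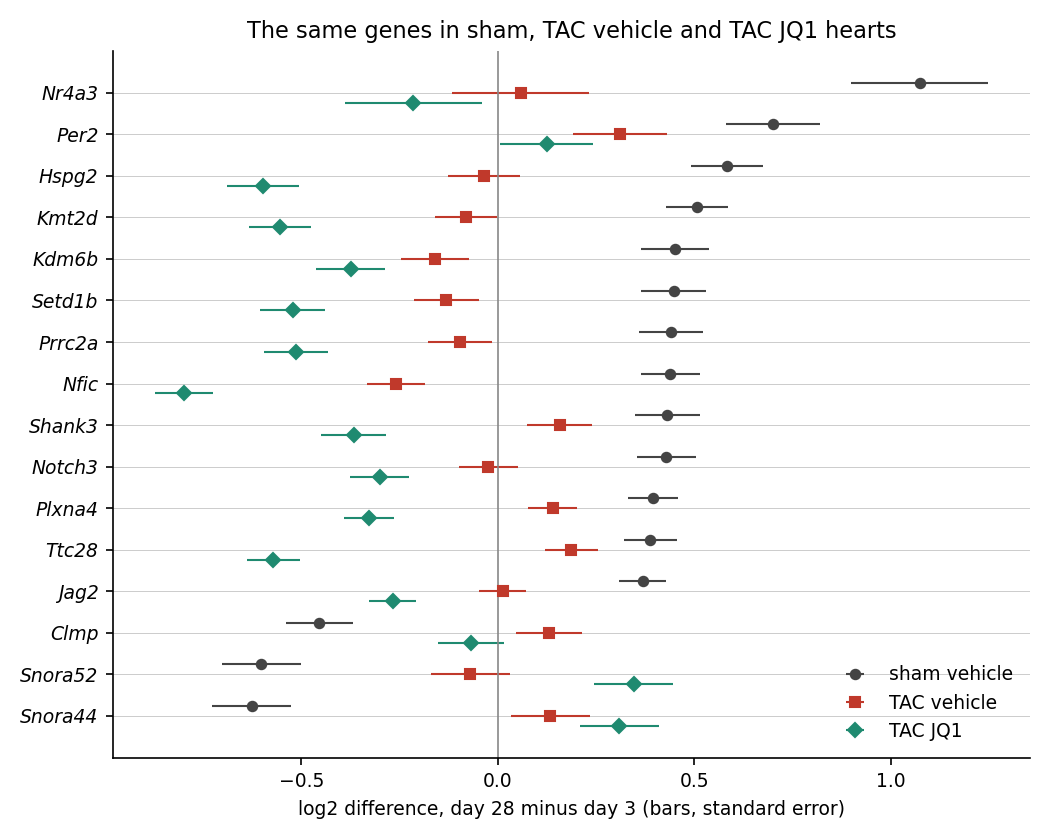
Day 28 minus day 3 difference of the 16 genes called in sham vehicle hearts, on the log2 scale with standard errors, in sham vehicle, TAC vehicle and TAC JQ1 hearts (3 arrays per group and day). The 13 genes that rose in sham lie between -0.26 and 0.31 in TAC vehicle hearts, and 11 of them lie below 0 and were called in TAC JQ1 hearts.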

How the data were processed

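RNA from mouse hearts was measured on Affymetrix whole-transcript arrays. The authors deposited log2 values of 34760 probe sets for 27 arrays, with a normalization not given in the sources used here. The submitters' processing notes name limma. The values were used as deposited. Probe sets with 1 gene (21640) were kept, and for genes with several only the brightest by its average across all 27 arrays, which left 19937 genes. No probe coordinates are given, since the files name no build. Depth does not apply to arrays, and the number of arrays limits the precision.

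All arrays entered 1 fit of group means (9 groups) in limma 3.58.1 and R 4.3.3, with 18 residual degrees of freedom. The contrasts were the 3 differences between sham days, the moderated F test across them and their differences from TAC vehicle hearts. The p-values are two-sided and adjusted by Benjamini-Hochberg over 19937 genes. Values after ± are moderated standard errors with n = 3 arrays per group. The tests were checked on simulated data. Probe sets with several genes or none (13120) were tested apart.

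The 47 gene lists (840 of 925 names matched) were described by counts and medians. The named genes were a set of standard markers, the largest called changes per direction, the smallest F test p-values and up to 4 members per list, with further list members and genes named as chosen after their values were seen. The arrays and the lists were chosen with earlier results of these data known. Alternatives were other normalizations, filters, variance models and sample sets, a replicate block and leaving out each array. Of 9 same-numbered pairs of arrays 2 had correlated deviations over 0.1 (range -0.44 to 0.484). Of 18 pairs with different numbers 6 did (range -0.525 to 0.544). These correlations cannot settle whether replicate numbers in the labels pair the arrays. Figures used Python 3.11.15, pandas 2.3.3 and matplotlib 3.10.9.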

Additional observations from a re-analysis of the deposited data

Results flagged for a closer look

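For 11 of the 16 genes called between day 28 and day 3 in sham hearts, the time course differed between TAC vehicle and sham hearts by the interaction test (adjusted p under 0.05, limma). The genes were chosen by the sham difference, which enters this test with a minus sign, so their number is no independent evidence. The log2 differences of TAC vehicle minus sham were -1.015 for Nr4a3, -0.6978 for Nfic, -0.6191 for Hspg2, -0.6102 for Kdm6b, -0.5869 for Kmt2d, -0.5789 for Setd1b, -0.5367 for Prrc2a, -0.4528 for Notch3 and -0.3569 for Jag2. They were 0.7601 for Snora44 and 0.5842 for Clmp, both of which fell in sham.

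Between day 11 and day 3 the folding genes called across the sham days differed in the same test, under the same limit, with -0.9803 for Manf, -0.6145 for Creld2 and -0.5499 for Xbp1.

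Among the probe sets left out of the gene tests 1 was called in sham hearts. It has no gene listed and differed by 0.4595 ± 0.069 between day 28 and day 3 (adjusted p = 0.0192 over 13120 probe sets, limma).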

How the results depend on the processing

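No called sham difference changed sign: 306 of 306 values, for 18 differences under 17 alternatives each, kept their direction and 193 their call. The medians of 12 list comparisons kept their sign but not their size. With array weights the day 28 minus day 3 median was -0.23 for macrophage markers (-0.36 as reported), -0.16 for complement (-0.30) and -0.11 for small nucleolar RNAs (-0.18). Centring on array medians gave -0.05 for ribosomal proteins (-0.08). Without day 3 array 2 the day 11 minus day 3 median of immediate early genes was 0.18 (0.11 with it), and that of collagen chains ranged from -0.16 to -0.05 over the alternatives. Counts are given in the order F test across sham days, day 11 against day 3, day 28 against day 11, day 28 against day 3, and the 3 differences of TAC vehicle from sham in the same order, and the reported counts were 13, 0, 2, 16, 70, 29 and 319. Leaving out 1 array gave 0 to 15, 0 to 4, 0 to 0, 0 to 18, 6 to 122, 4 to 86 and 95 to 451. Without the dimmest tercile of genes, with fewer tests, the counts were 21, 6, 4, 45, 156, 103 and 558. With trend and robust options they were 6, 5, 43, 141 and 91 from the second to the sixth. Array weights gave 2164, 1036, 148, 2018, 1031, 609 and 1312, with weights from 0.215 to 4.58, the highest being that of sham day 3 array 3, and the cause was not tested. Repeated quantile normalization gave 2 genes for day 11 against day 3 and 58 for the sixth count. Centring on array medians gave 5 for day 11 against day 3, 0 for day 28 against day 11 and 9 for the sixth. The 9 sham arrays alone gave 0 across days, 0 for day 28 against day 11 and 8 for day 28 against day 3, and the 18 vehicle arrays gave 210, 54 and 649 interactions, and in both cases fewer samples set the variance. The replicate number was also used as a block, though it is not known to pair these arrays. With it the counts were 3 for day 11 against day 3, 0 for day 28 against day 11 and 43 for the first interaction. This block kept 13 of the 16 calls between day 28 and day 3. Arrays have no depth. With 3 arrays per day, 4 of the 36 genes that differed by 1.5-fold or more between day 28 and day 3 were called.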
